A study of Mus musculus with 4 samples.

Results

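Cycling T cells were 91 of the 4157 T cells of 4 libraries, made from 2 borders of the brain at 2 ages. A cell was taken as a T cell when it held at least 1 unique molecular identifier (UMI, a tag that counts 1 captured RNA molecule) of Cd3d, Cd3e or Cd3g, which encode the signaling chains of the T cell receptor. It was taken as cycling when it also held UMIs of at least 2 of 7 genes, Mki67, Top2a, Birc5, Ube2c, Cenpf, Rrm2 and Pclaf. Only cells with 200 to 7000 detected genes and at most 5% mitochondrial UMIs were kept. These 7 genes chose the cells, so their values, and every gene compared between cycling and other T cells of the same library, are given as a description without a test.

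The meninges are the membranes that cover the brain, and the choroid plexus is the tissue in the ventricles that makes cerebrospinal fluid. T cells expressing CD4 or CD8 were sorted by flow cytometry from both tissues of female C57BL/6 mice aged 10 weeks (young) or 18 months (aged), and each of the 4 libraries was made from the pooled cells of 5 mice. Where 4 values follow each other below, they stand for young meninges first, then young choroid plexus, then aged meninges, and last aged choroid plexus. There was 1 library per group, so mice could not be told apart, no test between groups was made, and all intervals below are 95% intervals that cover counting error only. The libraries were made with droplet single-cell RNA sequencing of the 5′ ends of transcripts. They held 1111 cells and 3737140 UMIs in young meninges, 718 cells and 2295950 UMIs in young choroid plexus, 1695 cells and 4262917 UMIs in aged meninges, and 1277 cells and 3957717 UMIs in aged choroid plexus. Of these, 1023, 627, 1408 and 1099 were T cells within the limits above. Over the 4 libraries, 4157 of 4208 cells within the limits held a UMI of a Cd3 gene. Across library pairs, 8 cell barcodes were shared, and 0 of them belonged to a cycling cell.

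A dividing cell first copies its DNA in S phase and then separates the copies in mitosis. S phase needs deoxynucleotides, the MCM helicase, the sliding clamp PCNA and newly made histones. Mitosis needs cyclin B with its kinase Cdk1, the kinetochore that holds chromosomes to the spindle, and the anaphase-promoting complex that marks proteins for destruction. Resting T cells keep this machinery off through factors such as KLF2, BTG1 and BTG2, and switch it on after antigen and cytokine signals. Of the genes that chose the cells, Rrm2 encodes a subunit of the enzyme that makes deoxynucleotides, and Pclaf a partner of PCNA. Top2a encodes the topoisomerase that untangles DNA, Birc5 and Cenpf encode proteins of the centromere region, Ube2c an enzyme that works with the anaphase-promoting complex, and Mki67 a coat protein of mitotic chromosomes used as a marker of proliferation.

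The promoters of cycle genes carry short elements that are known from the control of these phases. The CHR element (TTTGAA) and the CCAAT box belong to genes of late phases, and E2F sites (here TTCCCGC or the variant TTGGCGC) to genes of DNA replication. These letters were searched on both strands in the 250 bases before each gene start in RefSeq sequences of GRCm38.p6. Of all 27025 such windows, 16.3% held TTTGAA, 34.5% held CCAAT, 3.84% held TTCCCGC and 2.05% held TTGGCGC. All 7 genes that chose the cells had a window. Of these, 6 held CCAAT (85.7%), 3 held TTTGAA (42.9%), 1 held TTGGCGC and 0 held TTCCCGC. A list of 38 mitosis genes had 31 windows, of which 24 held CCAAT (77.4%), 9 held TTTGAA (29.0%), 0 held TTCCCGC and 2 held TTGGCGC (6.45%). Among 25 windows for a list of 32 DNA replication genes, 13 held CCAAT (52.0%), 3 held TTTGAA (12.0%), 9 held TTCCCGC (36.0%) and 3 held TTGGCGC (12.0%). A match is a run of letters and not a measured binding site. The windows of Top2a (chr11:99024190-99024439, minus strand), Ube2c (chr2:164769679-164769928, plus strand), Cdk1 (chr10:69352913-69353162, minus strand) and Mcm5 (chr8:75109259-75109508, plus strand) are shown to let these letters be read in 3 late genes and 1 replication gene, and were chosen after the letters had been seen. They run 5′ to 3′ toward the gene start, and capitals mark matches to any of these letters on either strand.
Top2a: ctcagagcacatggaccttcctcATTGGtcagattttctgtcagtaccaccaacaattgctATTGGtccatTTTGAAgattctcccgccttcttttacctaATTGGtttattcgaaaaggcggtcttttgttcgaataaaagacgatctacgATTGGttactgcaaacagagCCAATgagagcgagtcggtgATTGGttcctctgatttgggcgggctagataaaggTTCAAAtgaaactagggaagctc
Ube2c: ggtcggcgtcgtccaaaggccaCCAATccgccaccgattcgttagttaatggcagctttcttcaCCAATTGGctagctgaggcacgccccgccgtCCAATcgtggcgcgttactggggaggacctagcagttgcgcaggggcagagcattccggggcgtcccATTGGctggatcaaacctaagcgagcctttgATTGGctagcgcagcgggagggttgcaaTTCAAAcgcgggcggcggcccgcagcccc
Cdk1: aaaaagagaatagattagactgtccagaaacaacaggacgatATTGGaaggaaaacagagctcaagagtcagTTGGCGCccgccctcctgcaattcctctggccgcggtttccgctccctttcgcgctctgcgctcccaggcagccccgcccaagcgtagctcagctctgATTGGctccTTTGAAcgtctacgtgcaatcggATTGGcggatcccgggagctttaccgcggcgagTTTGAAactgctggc
Mcm5: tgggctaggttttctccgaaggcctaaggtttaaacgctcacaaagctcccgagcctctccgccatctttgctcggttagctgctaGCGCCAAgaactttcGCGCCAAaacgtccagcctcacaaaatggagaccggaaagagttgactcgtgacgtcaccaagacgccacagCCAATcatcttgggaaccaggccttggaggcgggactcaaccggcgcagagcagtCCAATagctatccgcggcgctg
In Top2a the matches to TTTGAA lay 174 and 18 bases before the start, among 6 matches to CCAAT. Ube2c held 1 match to TTTGAA, 24 bases before the start, and also 6 to CCAAT, 2 of which overlap in opposite directions. Cdk1, the kinase that starts mitosis, held 2 matches to TTTGAA, 66 and 10 bases before the start, and 1 to TTGGCGC. Mcm5, a subunit of the helicase, held none to TTTGAA but 2 to TTGGCGC and 2 to CCAAT.

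The 7 genes lie on 6 chromosomes of GRCm38. Mki67 is at chr7:135689784-135716361, Top2a at chr11:98992943-99024189, Birc5 at chr11:117849251-117855743 and Ube2c at chr2:164769898-164778822. Cenpf is at chr1:189640606-189688086, Rrm2 at chr12:24708241-24714146 and Pclaf at chr9:65890237-65903266. These positions come from another annotation than the RefSeq starts used for the windows above, so the ends of the 2 can differ. The Ube2c window reaches into the gene as placed here, and so does the Cdk1 window, with Cdk1 at chr10:69335146-69352938.

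The cycling share of T cells was larger in the choroid plexus library than in the meninges library of the same age. Cycling cells made up 11 of 1023 T cells in young meninges (1.08%, exact binomial interval 0.538 to 1.92%) and 18 of 627 in young choroid plexus (2.87%, 1.71 to 4.50%). They made up 24 of 1408 in aged meninges (1.70%, 1.10 to 2.53%) and 38 of 1099 in aged choroid plexus (3.46%, 2.46 to 4.72%). The choroid plexus share exceeded that of the meninges by 1.80 percentage points in young mice (interval 0.362 to 3.51) and by 1.75 points in aged mice (0.460 to 3.15), or 2.67-fold and 2.03-fold. With UMIs of only 1 of the 7 genes required, the ratios were 1.22 and 1.47, and the young difference was 1.16 points (-1.23 to 3.74). The aged share exceeded the young by 0.629 points in meninges (interval -0.409 to 1.61) and by 0.587 points in choroid plexus (-1.32 to 2.30). These intervals treat the cells of 1 library as draws from that library, so they hold no information on how such shares vary between pools of mice, and no difference between tissues or ages was tested.

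**Figure D1:**
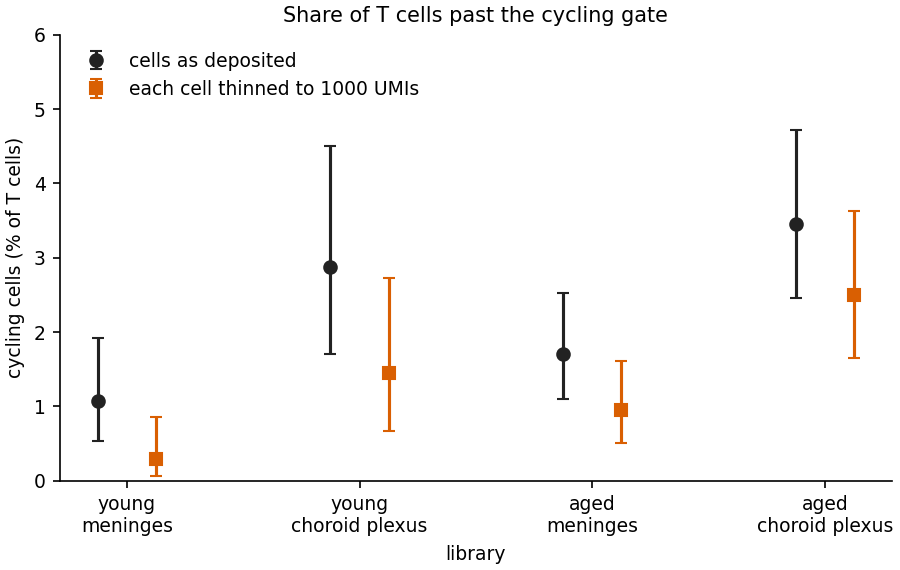
Share of T cells past the cycling rule (y axis, % of T cells) in the 4 libraries (x axis), for cells as deposited (circles) and for cells thinned to 1000 UMIs each (squares), with bars for exact 95% binomial intervals. The choroid plexus points, 2.87% and 3.46% as deposited, lie above the meninges points of 1.08% and 1.70% at the same age, and thinning lowers every point.

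The rule needs UMIs of at least 2 genes, so a deeper cell passes it more easily. Over the 4 libraries, 1 of 918 T cells with fewer than 2000 UMIs passed (0.109%), against 11 of 2405 between 2000 and 4000 (0.457%) and 17 of 599 between 4000 and 6000 (2.84%). Of 134 T cells between 6000 and 8000 UMIs 20 passed (14.9%), and of 101 with 8000 or more 42 passed (41.6%). The share was larger at every step in depth. When each cell was thinned to 1000 UMIs, which left out shallower cells, 3 of 1015 (0.296%), 9 of 621 (1.45%), 13 of 1370 (0.949%) and 27 of 1078 (2.50%) T cells passed in that order. The choroid plexus library then exceeded the meninges library by 1.15 points in young (interval 0.186 to 2.46) and 1.56 points in aged mice (0.476 to 2.76), or 4.90-fold and 2.64-fold. The aged minus young difference after thinning was 0.653 points in meninges (-0.065 to 1.36) and 1.06 points in choroid plexus (-0.483 to 2.42). Thinned to 2000 UMIs, a depth added after the first results were seen, it was 1.42 points in meninges (0.2995 to 2.65), with 6 of 942 young and 18 of 877 aged cells past the rule, and 1.73 points in choroid plexus (-0.196 to 3.51), with 11 of 556 and 32 of 864. The size of these differences thus varied with the depth at which cells were compared.

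Cycling T cells held more UMIs than other T cells. Their median was 9289 UMIs in young meninges, 6763.5 in young choroid plexus, 7744 in aged meninges and 7761.5 in aged choroid plexus, against 3203, 2974, 2284.5 and 2781 in the other T cells. The ratio of the medians was 2.90 (interval 0.880 to 7.02), 2.27 (1.88 to 3.09), 3.39 (2.33 to 4.35) and 2.79 (2.23 to 3.18). The interval spanned 1 in young meninges, with 11 cycling cells, and lay above 1 in the other libraries. The ranges overlapped in every library. The lowest cycling cell held 998, 2207, 2393 and 2170 UMIs and the highest 28483, 16511, 17457 and 20000, while the deepest other T cell held 11990, 12796, 11670 and 13482. Of the 91 cycling cells, 67 held over 2 times the median of the other T cells, 34 lay above their 99th percentile and 12 lay above the deepest of them.

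As 2 cells in 1 droplet also give high totals, signs of doublets were counted. UMIs of both Cd4 and Cd8a or Cd8b1, which most mature T cells do not express together, were found in 0, 2, 0 and 1 cycling cells. In young choroid plexus that was 11.1% of cycling and 2.79% of other T cells, and in aged choroid plexus 2.63% and 3.11%. In young and aged meninges it was 0 of 11 and 0 of 24 cycling cells, and 18 of 1012 and 30 of 1384 other T cells. The doublet caller Scrublet marked 16, 22, 0 and 5 T cells, none of them cycling. Its scores placed 4 of 91 cycling cells among the top 5% of their library. The median score was 0.095, 0.086, 0.093 and 0.108 in cycling cells and 0.095, 0.086, 0.085 and 0.082 in other T cells. Droplets with 2 T cells of 1 lineage would not show in the Cd4 and Cd8 count, and their part in the totals was not tested. The mitochondrial share of UMIs was lower in cycling cells, with medians of 1.80%, 2.17%, 1.84% and 1.96% against 2.44%, 2.98%, 2.40% and 2.60%.

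**Figure D2:**
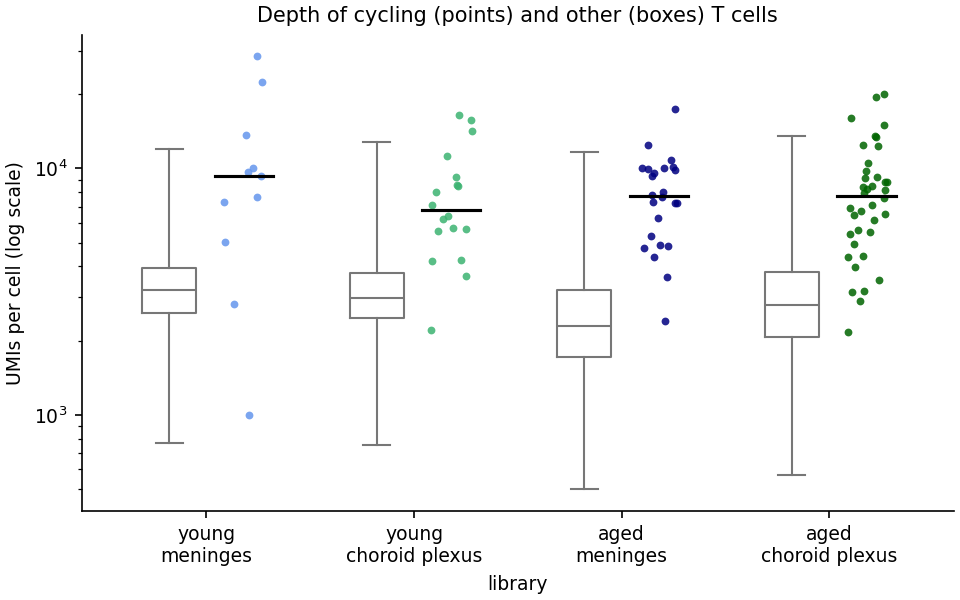
Total UMIs per cell (log axis) of cycling T cells and of other T cells in each of the 4 libraries, with a point for each cycling cell, a black bar at their median, and boxes of quartiles with whiskers to the lowest and highest other T cell. Medians of cycling cells lie between 6763.5 and 9289 UMIs and those of other T cells between 2284.5 and 3203, and the ranges overlap in every library.

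Markers of other cells were mostly scarce in cycling T cells. Of the macrophage markers Lyz2, Cd68, Csf1r, C1qa, C1qb, Adgre1 and Apoe, cycling cells held 0, 1, 16 and 1 UMIs in the 4 libraries. All 16 in aged meninges lay in 1 CD4 cell of 17457 UMIs, 14 of them Lyz2, which encodes a lysozyme of myeloid cells. The same cell held 284 UMIs of Cd74, 118 of H2-Ab1 and 111 of H2-Aa, which serve antigen presentation by class II molecules, and it held all 7 genes of the rule. None of 8 neutrophil lineage genes and none of 5 fibroblast genes had a UMI in any cycling cell. B cell markers had 44, 17, 27 and 37 UMIs, but 43, 16, 25 and 34 of these were Ighm, and Cd79a and Ms4a1 were at 0. Of the Ighm UMIs, 58.1% in young meninges and 62.5% in young choroid plexus lay in the deepest cycling cell of the library, with 28483 and 16511 UMIs, and the second of these cells also held UMIs of both Cd4 and Cd8a or Cd8b1. Their summed level was 375, 119, 141 and 117 CPM (counts per 1000000 UMIs) in cycling cells and 233, 218, 159 and 140 CPM in other T cells. Trdc, the constant chain of gamma-delta receptors, was at 0 in all 91 cells. The 5 gamma-delta genes together were at 68.1, 27.98, 10.5 and 158 CPM, against 21.6, 13.5, 37.5 and 101 CPM in other T cells. Natural killer markers, mostly Eomes, stood at 42.6, 13.99, 10.5 and 31.6 CPM, against 29.7, 20.9, 55.5 and 47.3 CPM. Early B cell and thymocyte markers had 1 UMI in all, in young choroid plexus. Plasma cell markers had 0, 0, 1 and 0 UMIs, dendritic cell markers 1, 0, 3 and 1, endothelial markers 2, 3, 2 and 4, and choroid epithelium markers 1, 1, 0 and 3, so none of these types was seen at more than 4 UMIs in a library. The 3 dendritic cell UMIs and the plasma cell UMI of aged meninges lay in the cell with the macrophage markers. Hemoglobin and other erythroid genes gave 68.1, 27.98, 73.2 and 9.48 CPM in cycling cells and 231, 12.0, 363 and 8.92 CPM in other T cells. Among cycling cells, hemoglobin UMIs were found only in aged meninges, and the erythroid UMIs of the other libraries were all Car2.

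The label was checked against 2 lists that the rule did not use, the 32 DNA replication genes and the 38 mitosis genes. The UMIs of both lists together had a median of 5.63 per 10000 UMIs in 3870 T cells with none of the 7 genes, 7.80 in 196 with exactly 1, 18.4 in 23 with exactly 2, 67.5 in 35 with 3 to 6 and 117 in 33 with all 7. The rate was higher in each class than in the one before it, and so was the median depth, from 2781.5 UMIs in cells with none to 3431, 4759, 7293 and 9584. The 95th percentile of cells with none was 17.2 per 10000. It was exceeded by 28 of 196 cells just outside the rule (1 gene), by 12 of 23 just inside it (2 genes), and by 66 of the 68 cells with 3 genes or more. Together, 78 of the 91 cycling cells lay above it, and the 13 others included 11 of the 23 cells at the threshold.

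UMIs of the 7 genes were spread over many cells. Top2a and Pclaf were each seen in 72 of the 91 cells, Mki67 in 65, Birc5 and Rrm2 in 60, and Ube2c and Cenpf in 51. Pclaf stood at 673, 986, 789 and 973 CPM in the cycling cells of the 4 libraries, and at 0.865, 3.49, 0.278 and 2.38 CPM in other T cells. Top2a was at 247, 707, 408 and 506 CPM, against 6.35, 4.98, 10.3 and 10.4 CPM. Mki67 was at 255, 420, 277 and 357 CPM, against 2.02, 2.99, 4.998 and 5.06 CPM. Each was lowest in young meninges. That library also had the fewest cycling cells, and its deepest cell held 24.2% of their UMIs, against 11.5%, 9.13% and 6.32% in the other three.

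The balance between replication and mitosis genes differed from cell to cell, so the 91 cells were not at 1 point of the cycle. More replication than mitosis UMIs were found in 43 cells and more mitosis UMIs in 44, while 4 had equal numbers. The 2 groups were split 6 to 5 in young meninges, 12 to 5 in young choroid plexus, 6 to 17 in aged meninges and 19 to 17 in aged choroid plexus. Replication genes had a median of 18.9, 57.2, 16.7 and 41.3 UMIs per 10000, with single cells reaching 58.2, 126, 68.5 and 121. Mitosis genes had medians of 10.4, 14.9, 26.9 and 41.8 per 10000, with highest cells at 108, 91.5, 154 and 118. Young choroid plexus thus leaned to replication and aged meninges to mitosis, and every library held cells of both kinds. Fewer than 5 UMIs of the 2 lists together were found in 10 cells, whose side is uncertain.

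**Figure D3:**
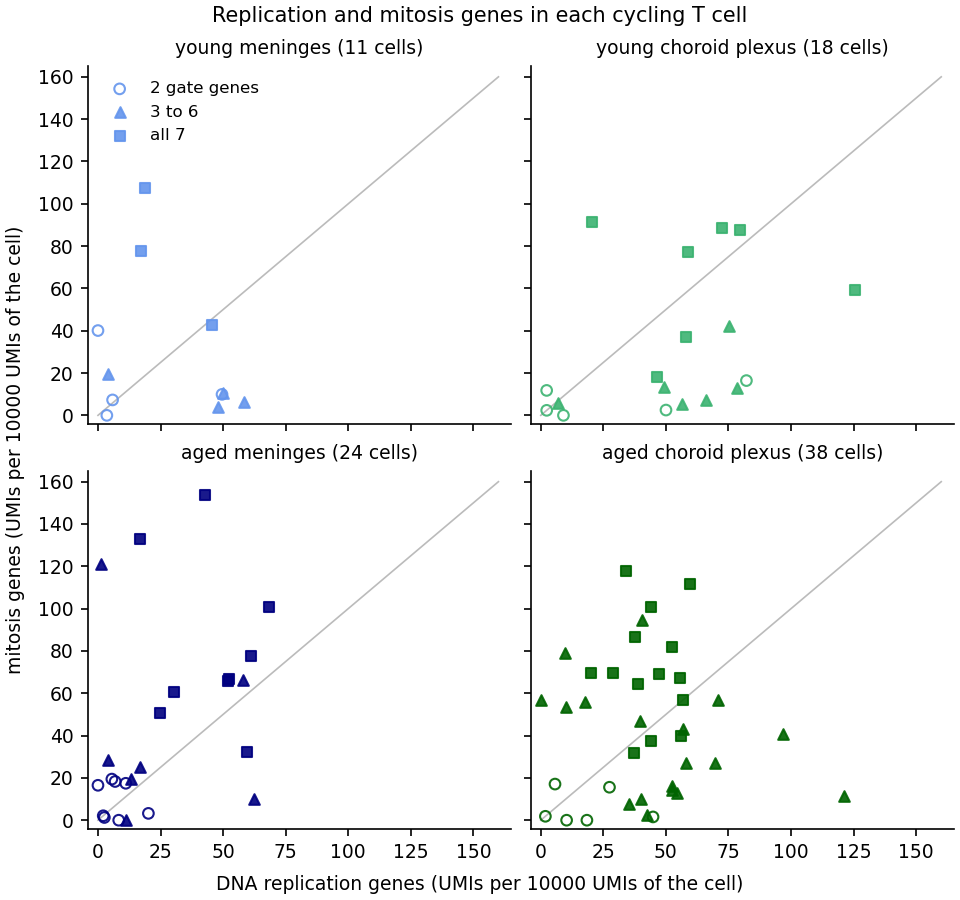
UMIs of 32 DNA replication genes (x axis) against 38 mitosis genes (y axis), each per 10000 UMIs of the cell, with 1 point per cycling cell, 1 panel per library a line where both are equal, and shapes for cells with 2, 3 to 6 or all 7 genes of the rule (gate genes). Points lie on both sides of the line in each panel, 12 to 5 toward replication in young choroid plexus and 17 to 6 toward mitosis in aged meninges.

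Genes were next compared between the summed UMIs of cycling and of other T cells in each library. The difference is given as log2 of the ratio of CPM values after 10 CPM were added to each, which understates the change of low genes. A gene was measured when both sides together held at least 20 UMIs, and was called higher or lower when the log2 difference was at least 1 with at least 20 UMIs on the higher side. Of 8519, 7365, 8913 and 8944 measured genes, 2.2%, 2.97%, 2.23% and 3.15% were higher in the cycling cells of the 4 libraries. By the same rule 14.5%, 10.1%, 7.16% and 5.68% were lower. A gene of 1 UMI in the cycling cells stood at 8.51, 6.995, 5.23 and 3.16 CPM, so low counts alone can give a lower call, and lower counts below also require that the exact Poisson intervals of the 2 levels lie apart. With that added, 2.43%, 1.89%, 1.69% and 3.3% were lower. The same contrast chose the cells, so nothing is read from these shares. In all 4 libraries, 50 genes were higher, 6 of them genes of the rule, and 19 were lower by the rule without the intervals.

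A part of the DNA replication genes was called higher in cycling cells of each library. Of the 32 genes on the list, 26, 26, 27 and 29 were measured, and 5, 15, 10 and 21 of these were higher and 0 lower. The median difference was 1.94, 2.87, 1.75 and 2.23 on the log2 scale, where all measured genes had medians of -0.09, 0.09, -0.09 and -0.11. Tk1, the thymidine kinase that recycles thymidine for DNA, was at 170, 231, 193 and 247 CPM in cycling cells, or 3.87, 4.33, 3.76 and 3.95 above other T cells in log2. Tyms, which makes thymidylate, differed by 3.12, 3.56, 3.26 and 3.22 on the log2 scale. Dut, which keeps uracil out of DNA, differed by 2.57, 3.02, 2.01 and 2.88. Both stood above the other T cells in every library. The log2 difference of Pcna, the sliding clamp, was 1.59, 2.87, 1.496 and 2.45, and that of the helicase subunit Mcm5 was 2.99, 3.19, 2.08 and 2.38. Hells, a chromatin remodeler of S phase, had a mean log2 difference of 3.05 over the 4 libraries. Slbp, which binds the stem-loop of histone messages, differed by 1.35, 2.28, 1.60 and 1.66.

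Histone genes are transcribed mainly in S phase, and Hist1h2ap had the largest mean difference of the 50 genes higher in all 4 libraries. It was at 3576, 6897, 7062 and 8346 CPM in cycling cells and at 51.1, 74.7, 32.5 and 67.2 CPM in other T cells, a log2 difference of 5.88, 6.35, 7.38 and 6.76. It was seen in 6, 10, 14 and 28 of the 11, 18, 24 and 38 cycling cells. Hist1h2ae stood 5.05 and the linker histone Hist1h1b 4.55 higher on average on the log2 scale. Of 10 histone genes listed, 6, 7, 7 and 7 were measured and 3, 7, 6 and 7 were higher. Copies of histone genes are nearly identical, so which copy a read came from is uncertain.

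Mitosis genes were low in other T cells, and many of those measured reached the count minimum through the cycling cells alone. Of the 38 genes, 11, 12, 22 and 27 were measured, and 5, 9, 18 and 25 were higher, with medians of 2.51, 3.96, 3.75 and 3.62 in log2. Ccnb2, a cyclin B, was at 230, 203, 282 and 164 CPM, with log2 differences of 4.54, 4.34, 4.83 and 3.96. Cks1b, which binds cyclin-dependent kinases, was at 289, 385, 465 and 408 CPM in cycling cells and 8.08, 8.97, 8.61 and 16.1 CPM in other T cells. The log2 difference of its relative Cks2 averaged 3.48. Cenpa, the histone variant that marks centromeres, differed by 2.09, 2.52, 3.66 and 4.22 in log2, more in each aged than in the young library of the same tissue. Cdk1 differed by 4.02 in young meninges, 3.87 in aged meninges and 3.96 in aged choroid plexus. The list's smaller measured number in the young libraries went with their smaller numbers of cycling cells.

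Chromatin and tubulin genes, which are needed in larger amounts for division, were measured on the whole list of 20. Of these, 15, 17, 19 and 20 were higher and 0 lower, with medians of 1.97, 2.15, 2.34 and 2.23. Stmn1, which destabilizes microtubules, was at 885, 1553, 1553 and 2067 CPM in cycling cells and at 50.2, 46.8, 12.2 and 20.2 CPM in other T cells. Its log2 difference was 3.89, 4.78, 6.14 and 6.10. Hmgb2, a DNA-bending protein, was at 2213, 2210, 3738 and 3299 CPM, against 253, 245, 333 and 284 CPM. H2afz, a histone variant, differed by 2.18, 2.39, 2.50 and 2.47 in log2, and the tubulin gene Tubb5 by 1.54, 1.86, 2.31 and 2.34. Tuba1b, Hmgn2 and the nuclear lamin gene Lmnb1 were also among the 15 largest, with mean log2 differences of 2.94, 2.98 and 2.95. All of these had UMIs in the sums of both kinds of cells and differed in amount.

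**Figure D4:**
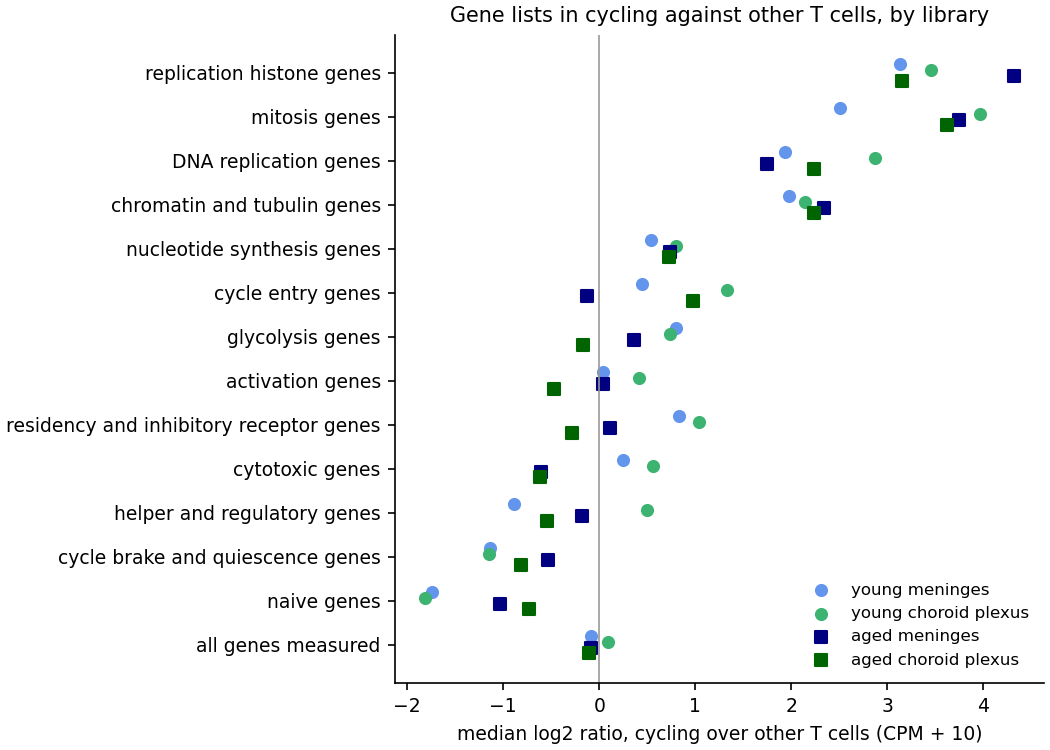
Median log2 difference between cycling and other T cells (x axis, after adding 10 CPM) of the measured genes of each list (y axis), with circles for young and squares for aged libraries. Replication, mitosis, histone and chromatin lists lie to the right of 0 in all 4 libraries (1.75 to 4.32), the quiescence and naive lists to the left (-1.82 to -0.53), and the cytotoxic list on both sides.

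These list differences were recomputed against only the deep T cells among the others, those at least as deep as the lower quartile of the cycling cells, which were 42, 45, 62 and 94 cells. This sets a floor and does not match the depths. This comparison was added after the first results were seen. The median log2 difference was then 2.18, 2.75, 2.08 and 2.12 for replication, 3.33, 4.003, 3.92 and 3.61 for mitosis and 1.52, 2.21, 2.17 and 2.02 for chromatin and tubulin genes. The mitosis genes measured were in part chosen by the count minimum, which many passed through the cycling cells alone, so their median is a description only. When each cell was thinned to 1000 UMIs, so that deep cells weighed no more than others, the replication medians were 1.60, 2.07, 1.57 and 2.15 over 10, 8, 16 and 12 measured genes, of which 0, 0, 0 and 1 were called higher and 2, 0, 2 and 0 lower. Over all genes at this depth, 12, 22, 27 and 36 were called higher. Lower calls numbered 3016 in young meninges, 2507 in aged meninges and 1577 in aged choroid plexus, so nothing is read from the lower calls of the list. The interval of the replication median over the genes spanned 0 in young meninges (-2.10 to 2.58). Only 2, 0, 3 and 4 mitosis genes were then measured, and the 2 in young meninges had a median of 0.14.

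Genes that start or steer the cycle were mostly low in counts. Of 19 genes on a cycle entry list, 10, 11, 11 and 12 were measured. Of these, 1, 1, 0 and 2 were higher, beside 2.2%, 2.97%, 2.23% and 3.15% of all genes. With intervals apart, 1, 0, 0 and 1 were lower, beside 2.43%, 1.89%, 1.69% and 3.3% of all genes. The medians were 0.45, 1.33, -0.13 and 0.97 in log2, and 0.08 in aged meninges with genes at 0 set to the level of 3 UMIs. Cdk4, the kinase that starts the passage from G1, was higher in young meninges and young choroid plexus (log2 difference 1.51 and 1.35), and its values in the aged libraries were 0.08 and 0.88. Ccnd2, a cyclin partner of CDK4, was lower in young meninges and aged choroid plexus (-1.46 and -1.15), with -0.26 in young choroid plexus and -0.98 in aged meninges. E2f8, a repressor of E2F targets, and Rbl1, a relative of the retinoblastoma protein, were higher in aged choroid plexus (2.83 and 1.61). E2f8 had 20 UMIs in cycling and 1 in other T cells there, so it reached the count minimum through the cycling cells. Myc, a driver of growth, was at 51.1, 42.0, 36.6 and 37.9 CPM, against 36.9, 42.9, 40.8 and 47.6 CPM, and passed the rule in no library. E2f1, an activator of replication genes, did not reach the 20 UMIs needed for a higher call, with 5, 16, 6 and 15 UMIs in cycling cells, at 42.6, 112, 31.4 and 47.4 CPM against 3.17, 1.99, 2.50 and 2.38 CPM. The same held for Ccne1, a cyclin E, with 6, 4, 5 and 16 UMIs in cycling cells, at 51.1, 27.98, 26.1 and 50.6 CPM against 3.75, 8.97, 2.50 and 3.57 CPM. Other genes of the list with more CPM in cycling than in other T cells of every library, but under 20 UMIs in cycling cells, were Cdk2, E2f2, Foxm1, Myb, Mybl2 and Skp2. Foxm1, Mybl2 and Skp2 were not measured in any library, and the intervals of Myb overlapped in every library. Foxm1 in young meninges and Myb in aged choroid plexus rested on 1 UMI in cycling cells. These genes were picked by their direction, so it is a description only.

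A part of the genes that hold T cells at rest were lower, fewest in aged meninges. Of 19 cycle brake and quiescence genes, 17, 16, 19 and 19 were measured, and 8, 9, 3 and 7 were lower with intervals apart, beside 2.43%, 1.89%, 1.69% and 3.3% of all genes. The medians were -1.13, -1.14, -0.53 and -0.81 in log2. Btg1, an antiproliferative factor, was at 358, 189, 460 and 190 CPM in cycling cells and 1206, 865, 1156 and 655.5 CPM in other T cells. Its relative Btg2 differed by -1.71, -1.92, -1.38 and -1.47 in log2. Both were lower in all 4 libraries. Klf2, a factor of quiescence and recirculation, differed by -1.57, -2.15, -0.39 and -1.39, and the glucocorticoid-induced Tsc22d3 by -3.09, -2.17, -0.86 and -1.63. Of the Klf2 UMIs of cycling cells, 41.9%, 44%, 43.5% and 27.3% lay in 1 cell of each library. The list's higher genes were 3 inhibitors of CDK4 and CDK6. Cdkn2d was higher in aged meninges and aged choroid plexus (1.18 and 1.10), and Cdkn2a and Cdkn2c in aged choroid plexus (1.92 and 1.64). Against the deep T cells the list medians were -0.74, -1.36, -0.48 and -0.65.

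Genes of naive T cells were lower in most cases in the young libraries and in a smaller part in the aged. All 10 were measured in each library. Of these, 6, 8, 4 and 4 were lower with intervals apart, beside 2.43%, 1.89%, 1.69% and 3.3% of all genes, and 0 were higher. The medians were -1.74, -1.82, -1.04 and -0.73 in log2. With genes at 0 in cycling cells set to the level of 3 UMIs, the medians were -1.41, -1.82, -0.90 and -0.73. Il7r, the receptor of the survival cytokine interleukin 7, was at 238, 154, 220 and 142 CPM against 788, 741, 767 and 623 CPM, and was lower in all 4 libraries. The authors count Il7r among effector memory molecules, so it does not mark naive cells alone. Lef1, a naive T cell transcription factor, differed by -1.79, -2.89, -0.57 and -0.77. The lymph node homing receptor gene Ccr7 differed by -0.92, -1.87, -2.39 and -0.37. Igfbp4 had 0, 33, 0 and 2 UMIs in cycling cells, and all 33 in young choroid plexus lay in 1 cell. Against only those other T cells that had no Ccr7 UMI, a comparison added later, the naive list stood at -1.10, -1.41, -0.67 and -0.46.

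The share of cells past the rule was set beside Ccr7 in the same way. Among T cells with a Ccr7 UMI, 0.654%, 1.46%, 0.746% and 7.27% were cycling, against 1.70%, 4.56%, 1.81% and 3.03% of those without. The order was reversed in aged choroid plexus, where 8 of 110 cells with a Ccr7 UMI passed (interval 3.19 to 13.8%). Those 110 cells had a median of 3789.5 UMIs, and the 989 without had 2758. After thinning to 1000 UMIs the shares were 4.55% with and 2.27% without Ccr7 in that library, and 0.163% and 0.496%, 0.294% and 2.85%, and 0.758% and 0.969% in young meninges, young choroid plexus and aged meninges.

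Metabolic genes moved in part. Tpi1 and Gapdh, enzymes of glycolysis, were higher in all 4 libraries, by 1.91, 2.39, 1.18 and 1.32 and by 1.66, 1.38, 1.02 and 1.02 in log2. Of 15 glycolysis genes, 15, 13, 15 and 15 were measured and 6, 3, 2 and 2 were higher, with medians of 0.80, 0.74, 0.36 and -0.17. Ldha, which makes lactate, differed by 1.03, 0.60, 0.48 and 0.45. Over all genes 2.2%, 2.97%, 2.23% and 3.15% were higher. Of 15 genes that make, salvage or phosphorylate nucleotides, 14, 13, 13 and 14 were measured and 2, 0, 0 and 3 were higher, among them Impdh2 and Nme1 in young meninges and Dck, Dtymk and Mthfd2 in aged choroid plexus. Of these, Dck salvages deoxynucleosides, Dtymk and Nme1 phosphorylate nucleotides already made, Impdh2 acts in the making of guanine nucleotides, and Mthfd2 is a mitochondrial enzyme of folate metabolism. Their medians were 0.54, 0.80, 0.74 and 0.73. Of an activation list, 15, 10, 17 and 16 genes were measured, and 0 were higher in any library. On this list 1, 0, 0 and 2 genes were lower with intervals apart, beside 2.43%, 1.89%, 1.69% and 3.3% of all genes. Its medians were 0.04, 0.41, 0.04 and -0.47. The interleukin 2 receptor gene Il2ra had 0, 0, 3 and 7 UMIs in cycling cells.

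The sign of the median of the cytotoxic genes varied between libraries. They had a median log2 difference of 0.25 and 0.56 in young meninges and young choroid plexus, and of -0.61 and -0.62 in aged meninges and aged choroid plexus. Of 15, 13, 15 and 15 measured, 4, 1, 0 and 1 were higher and 1, 1, 0 and 3 were lower with intervals apart, beside 2.2%, 2.97%, 2.23% and 3.15% higher and 2.43%, 1.89%, 1.69% and 3.3% lower over all genes. Nkg7, a granule protein of killer cells, was at 1124, 1070, 727 and 1033 CPM in cycling cells, while other T cells stood at 386 and 448 CPM in young and at 1138 and 1225 CPM in aged mice. The level thus varied less among the cycling cells than among the other T cells, and the difference between them from other T cells was 1.52, 1.24, -0.64 and -0.24 in log2. Ccl5, a chemokine of memory and effector cells, was at 3073, 958, 3210 and 1839 CPM in cycling cells and 1443, 1706, 6409 and 6042 CPM in other T cells. Gzmk, a granzyme of memory CD8 T cells, differed by 3.64, 1.63, -0.51 and 0.07, but 83.0% of its 53 UMIs in young meninges lay in 1 cell. Against other T cells without a Ccr7 UMI, the cytotoxic medians were -0.21, 0.19, -0.61 and -0.62, and against the deep T cells -0.50, 0.62, -0.54 and -0.43. The sign in young meninges therefore depended on which T cells were the reference. Whether the young and aged libraries differed in this was not tested.

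Residency and inhibitory receptor genes had medians of 0.83, 1.04, 0.11 and -0.28, with 3, 2, 0 and 0 higher and 0, 0, 1 and 1 lower with intervals apart of 7, 6, 9 and 9 measured. Over all genes, the shares were those given for the cytotoxic list (2.2% to 3.15% higher and 1.69% to 3.3% lower). The medians were 0.52, 0.30, 0.12 and -0.35 against T cells without a Ccr7 UMI. Itgb1, an integrin subunit, differed by 1.53, 1.05, 0.11 and -0.26. Pdcd1, the inhibitory receptor PD-1, was higher in young meninges (2.47) and had 1.66, 0.24 and -0.41 elsewhere. Cxcr6, a chemokine receptor of resident T cells, was higher in young choroid plexus (1.17) and lower in aged meninges (-1.02). Helper and regulatory genes had medians of -0.89, 0.49, -0.18 and -0.55, with 1, 1, 0 and 0 higher and 0, 0, 2 and 1 lower with intervals apart of 7, 5, 8 and 7 measured, beside the same shares of all genes, and the median of young meninges was 0.00033 with genes at 0 set to the level of 3 UMIs. Il17a, a cytokine of type 17 T cells, had no UMI in cycling cells of aged meninges, where other T cells had 110 CPM and 3 UMIs would have given 15.7 CPM.

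CD4 and CD8 T cells were both found among the cycling cells. By UMIs of Cd4 alone or of Cd8a or Cd8b1 alone, the cycling cells held 5 CD4 and 5 CD8 cells in young meninges, 5 and 7 in young choroid plexus, 12 and 6 in aged meninges, and 9 and 20 in aged choroid plexus. Both were found in 3 and neither in 19 of the 91. CD8 cells made up 5 of 10 (interval 18.7 to 81.3%), 58.3% (27.7 to 84.8%), 33.3% (13.3 to 59.0%) and 69.0% (49.2 to 84.7%) of cycling cells called CD4 or CD8. In other T cells these shares were 50%, 49.8%, 44.0% and 67.3%, each within the interval of the cycling cells. Thinned to 1000 UMIs, where fewer cells kept a call, the shares were 83.3%, 66.7%, 57.1% and 76.5% in cycling and 66.4%, 64.1%, 55.1% and 77.99% in other T cells. Of the CD4 cells of aged meninges 3.31% were cycling and of its CD8 cells 2.14%, and in aged choroid plexus these shares were 3.90% and 4.20%.

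**Figure D5:**
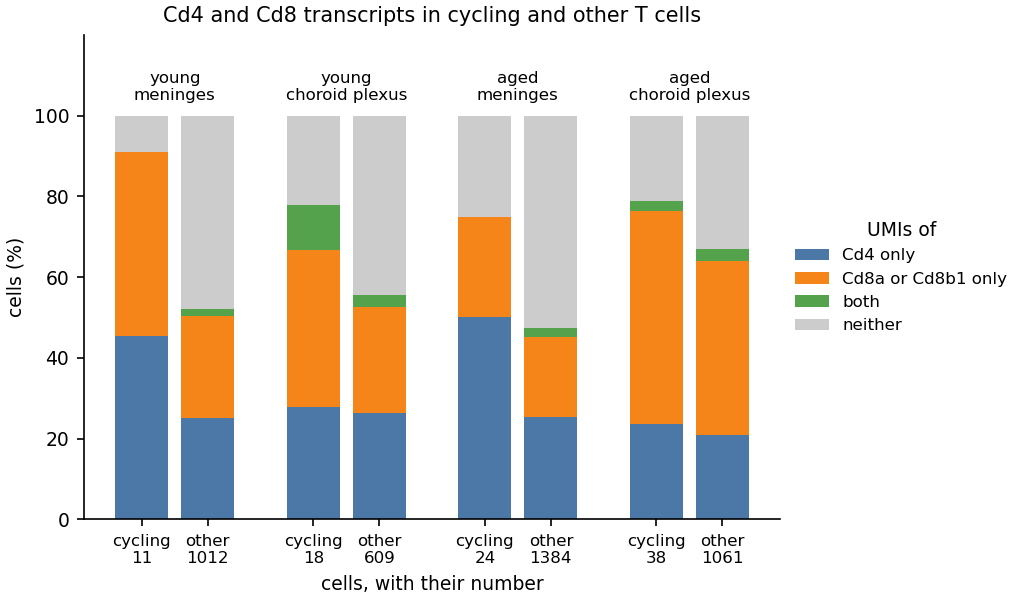
Share of cycling and of other T cells (y axis, %) with UMIs of Cd4 only, of Cd8a or Cd8b1 only, of both and of neither, for each library (x axis). Among aged libraries, cycling cells of the meninges held more CD4 (12) than CD8 cells (6) and those of the choroid plexus more CD8 (20) than CD4 cells (9).

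Foxp3, which encodes the factor of regulatory T cells, was seen in 1, 0, 8 and 3 cycling cells. In aged meninges that was 33.3% of cycling (interval 15.6 to 55.3%) and 9.61% of other T cells, whose median depths were 7744 and 2284.5 UMIs. After thinning to 1000 UMIs it was 0 of 24 cycling cells (upper bound 14.2%) and 4.53% of the others. The 8 cells held 12 Foxp3 UMIs in all, so few would be left at that depth. They included the cell with the macrophage markers and cells with only 2 genes of the rule. Some of the latter were called CD8, with 2.10 and 2.55 replication UMIs and 2.10 and 1.28 mitosis UMIs per 10000. The shares were not compared at a larger equal depth.

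The cycling cells used many receptor genes. A Trbv gene, the variable part of the T cell receptor beta chain, was found in 11, 18, 24 and 34 cycling cells, and 7, 11, 14 and 14 different genes were the most abundant of a cell. In young meninges, Trbv12-1, Trbv3, Trbv16 and Trbv19 were tied as the commonest (2 cells each). The commonest was Trbv16 in young choroid plexus (3 cells) and Trbv19 in aged meninges (7 cells). In aged choroid plexus, Trbv1 and Trbv13-2 were tied (5 cells each). Trbv19 made up 29.2% of the cycling cells with a Trbv gene in aged meninges (interval 12.6 to 51.1%) and 7.80% of the other T cells there. Trbv16 made up 16.7% (3.58 to 41.4%) against 8.995% in young choroid plexus, and Trbv1 14.7% (4.95 to 31.1%) against 8.14% in aged choroid plexus. Trbv13-2, tied with Trbv1 there, made up 12.7% of those other T cells. The commonest gene was chosen by its count, so these shares are a description, and a shared Trbv gene does not show a shared clone.

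Aged and young cycling cells were then compared within each tissue, with the same measure and rule. The rule that chose the cells did not use this contrast, except through its 7 genes. In meninges, 11 young and 24 aged cells gave 2216 measured genes, of which 140 were higher (6.32%) and 39 lower (1.76%) in aged cells, or 3.38% and 1.31% with intervals apart. In choroid plexus, 18 young and 38 aged cells gave 3036 measured genes, of which 78 were higher (2.57%) and 25 lower (0.823%), or 1.12% and 0.626% with intervals apart. There was 1 library on each side and sums can rest on few cells, so a call compares these libraries and not the ages. Without the 1 cell that held macrophage markers, a setting added after it was seen, 130 genes were higher and 38 lower in aged meninges.

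Replication genes were called in 1 case between aged and young cycling cells. Their summed CPM was 3541 in young against 3011 in aged meninges, and 5260 against 4209 in choroid plexus, with median log2 differences of -0.002 and -0.44 and 0 of 22 and 0 of 27 measured genes higher. The 1 gene called lower was Fen1, a nuclease of lagging-strand synthesis, in aged meninges (-1.38). The mitosis genes summed to 3090 CPM in cycling cells of young meninges and 5217 CPM in those of aged meninges, where 9 of 21 measured genes were higher (5 with intervals apart) with a median of 0.75. In choroid plexus they stood at 3770 and 4744 CPM, with 3 of 30 higher and a median of 0.15. All measured genes had medians of 0.05 and -0.03. Of them, 6.32% in meninges and 2.57% in choroid plexus were higher (3.38% and 1.12% with intervals apart), and 1.76% and 0.823% lower. Cenpa was higher in aged cells of both tissues, with 196 CPM in young against 470 CPM in aged meninges (1.22 in log2) and 182 against 442 CPM in choroid plexus (1.24). The kinetochore gene Knl1 (1.97), the kinesin gene Kif22 (2.87) and Cdca8 of the chromosomal passenger complex (1.57) were higher in meninges. Histone genes summed to 4427 CPM in young against 9065 CPM in aged meninges, with 4 of 6 measured higher, beside 6.32% of all genes. They had a median of -0.31 in choroid plexus. Aged meninges was also the library in which more cells leaned to mitosis, and the 11 young cells against which it was set included 1 that held 24.2% of their UMIs. The 3 of these young cells with all 7 genes of the rule held 122, 100 and 289 histone UMIs and 72, 108 and 122 mitosis UMIs. No other young meninges cell held over 4 histone or 15 mitosis UMIs, so the young sums of both lists rest mainly on 3 cells.

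Over all measured genes, 16 were higher in aged cycling cells of both tissues and 0 were lower in both, and 8 of the 16 had intervals apart in both. These 8 were Ikzf2, Gm42743, Tnfrsf4, Cenpa, Capg, Junb, Hist1h2bn and Nfkbia. Ikzf2, which encodes Helios, a factor of regulatory and some activated T cells, was at 17.0 CPM in young against 272 CPM in aged meninges and at 20.99 against 133 CPM in choroid plexus. Its log2 difference was 3.38 in meninges and 2.20 in choroid plexus, against 1.996 and 2.46 in other T cells. Tnfrsf4, the costimulatory receptor OX40, differed by 2.60 and 2.54, and by 1.86 and 3.15 in other T cells. It had 59 UMIs in 10 of 24 cycling cells of aged meninges, 39.0% of them in 1 cell. In aged choroid plexus it had 54 UMIs in 11 of 38 cycling cells, 35.2% of them in 1 cell. Ikzf2 and Tnfrsf4 were thus also higher in aged T cells that were not cycling. Naive genes had medians of -1.01 and -0.76 in aged against young cycling cells, and of -1.83 and -1.86 in other T cells. Cytotoxic genes had medians of -0.26 and 0.15 in cycling and 1.43 and 1.07 in other T cells. Whether the age difference itself differed between cycling and other T cells was not tested.

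Several of the largest age differences lay in 1 cell. In aged meninges, Cd74, H2-Ab1, H2-Aa and H2-Eb1 reached 309, 120, 112 and 57 UMIs, against 1, 0, 0 and 0 in young meninges, but 91.9%, 98.3%, 99.1% and 96.5% of them were in 1 cell. For Cd74, H2-Ab1 and H2-Aa this was the cell with the macrophage markers described above. Penk in aged choroid plexus had 47 UMIs, all in 1 cell, and Gzma had 56 UMIs in 5 cells, 75% of them in 1. Ccl4 in aged meninges had 54 UMIs in 6 cells, 77.8% in 1 of them. Against the level that 3 UMIs would have had in young cells, Areg, a growth factor of tissue repair, was at least 8.39-fold higher in aged meninges, with 41 UMIs in 5 cells. Spread over more cells were Tmem176b and Tmem176a in choroid plexus, with 22 UMIs in 8 and 21 UMIs in 10 of the 38 aged cells and 0 in 18 young cells, at least 3.31-fold and 3.16-fold higher. Maf, a transcription factor of effector T cells, had 26 UMIs in 10 aged cells and 1 UMI in young cells.

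A gene called lower in aged cycling cells needed 20 UMIs in the young cells, which held fewer UMIs in all (117466 against 191292 in meninges and 142958 against 316427 in choroid plexus), so the counts in the 2 directions are not like for like. With a minimum of 10 UMIs, 209 genes were higher and 134 lower in aged choroid plexus, and with 50 UMIs 18 and 2. Ccr7 was lower in aged meninges, with 1 UMI at 5.23 CPM against 33 UMIs in 4 young cells at 281 CPM (log2 difference -4.26), and 66.7% of the young UMIs lay in 1 cell. Ly6c2, an Ly6C surface protein of memory CD8 T cells, had 97 UMIs in 7 young cells at 826 CPM and 12 UMIs in 6 aged cells at 62.7 CPM (-3.52). Tcf7, a factor of naive and memory T cells, was at 289 CPM in young against 83.6 CPM in aged meninges (-1.68), and the difference in other T cells was -1.42. In choroid plexus, the splicing-related gene Scaf11 was at 483 CPM in young against 117 CPM in aged cells (-1.96), the RNA helicase gene Ddx6 at 140 and 28.4 CPM (-1.96), and Klf2 at 175 and 69.5 CPM (-1.22). For Scaf11 the difference in other T cells was -1.04 and for Ddx6 it was -0.13. Igfbp4 was also lower in aged choroid plexus, but its 33 young UMIs lay in 1 cell.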

How the data were processed

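RNA was measured in 4 droplet libraries of sorted T cells. Per the file headers, the deposited values are UMI counts of 31053 genes in each cell, not normalized, which the authors wrote with Cell Ranger 3.1.0. The submitters' processing notes name Cell Ranger 5.1.0 and STAR with the mm10 build, so the version is uncertain. Doublets were removed by the authors with DoubletFinder in their own analysis, but whether the deposited matrices were made before that step is not given in the sources used here.

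Counts were read with Python 3.11.15, numpy 2.4.6, pandas 2.3.3, scipy 1.17.1 and scanpy 1.11.5. Cells were kept with 200 to 7000 genes and at most 5% mitochondrial UMIs. Cycling and other T cells were compared in summed counts as CPM, with 10 CPM added before log2. Shares have exact binomial intervals (Clopper-Pearson) and levels exact Poisson intervals, at 95%. Thinning drew UMIs without replacement (seed 0). The calculation was tested on simulated data. With 1 library per group, no p-value was computed. The cells, the 26 gene lists and the comparisons were chosen with earlier results of these data known. Named genes were the 7 rule genes, examples from the lists, the 15 highest and 10 lowest mean differences called in all 4 libraries, and the 10 highest and 10 lowest age differences per tissue, without receptor, immunoglobulin, mitochondrial and ribosomal genes. The 8 genes called in both tissues with intervals apart, and the genes of single cells, were named after their values were seen. Alternatives tried were other gates, depths, added CPM, count minimums and reference cells, and leaving out cells with doublet signs.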

Additional observations from a re-analysis of the deposited data

Results flagged for a closer look

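Gzmk was the only gene named in the text whose age difference in cycling cells passed the size rule with opposite directions in the 2 tissues. It was lower in aged than in young cycling cells of the meninges (log2 difference -1.07, from 53 UMIs at 451 CPM to 40 UMIs at 209 CPM) and higher in those of the choroid plexus (1.25, from 14 UMIs at 97.9 CPM to 78 UMIs at 247 CPM). In young meninges 83.0% of the UMIs lay in 1 cell. In other T cells Gzmk was higher in aged mice in both tissues (3.07 and 2.80). The difference between the tissues was not tested.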

How the results depend on the processing

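Of 319 recomputed summary values, 245 stayed within their tolerance (counts within 1.5 times, other values within their interval), 74 moved and 0 whose interval lay off 0 changed sign, and of 648 values of named genes 503 stayed and 145 moved. The cytotoxic median of young meninges, whose interval spanned 0, changed from 0.25 to -0.21 against T cells without a Ccr7 UMI and to -0.50 against the deep T cells. Where nothing else is said, the cause was not tested. Sets of 4 values have the order of the report.

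The cycling share varied with the gate and, in most libraries, with depth. With 1 gene enough, it was 5.38%, 6.54%, 6.32% and 9.28%, and the age difference in choroid plexus was 2.74 points. Thinned to 1000 UMIs it was 0.296%, 1.45% and 0.949% in all but aged choroid plexus, and without cells above the 99th percentile of UMIs 1.01% in aged meninges. By thinning, the CD8 share of young meninges became 83.3%. With at least 3 genes, young meninges had 4 different Trbv genes.

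Genes higher in cycling than in other T cells numbered 12, 22, 27 and 36 after thinning and 71, 79, 88 and 124 with a minimum of 50 UMIs. Thinning leaves fewer UMIs, and the higher minimum fewer genes. They numbered 346, 476 and 348 in all but aged choroid plexus with a minimum of 10 UMIs, and 121, 129 and 183 with 50 CPM added in young meninges, aged meninges and aged choroid plexus. Lower genes numbered 207, 139, 151 and 295 with intervals apart, 2209, 1149, 1718 and 1544 with 1 CPM added and 101, 63, 31 and 32 with 50 CPM added. They numbered 3016, 2507 and 1577 after thinning in young meninges, aged meninges and aged choroid plexus, 391 in young choroid plexus with a minimum of 50 UMIs, and 1074 in aged meninges with at least 3 genes.

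Genes higher in aged cycling cells numbered 75 in meninges and 34 in choroid plexus with intervals apart, 342 and 209 with a minimum of 10 UMIs, 38 and 18 with 50 UMIs, 15 and 10 after thinning, and 78 and 28 with 50 CPM added. Lower genes numbered 147 and 134, 7 and 2, 5 and 2, and 24 and 7 under these settings other than intervals apart.

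With 1 CPM added, the median log2 difference of replication genes was 2.75, 3.19, 2.13 and 2.59, and that of mitosis genes 6.14, 5.75 and 5.72 in all but young meninges. After thinning, young meninges had 1.60 for replication, 0.14 for mitosis, -2.24 for brake and 1.11 for cytotoxic genes, and young choroid plexus 2.07 for replication. Against the deep T cells, replication was 2.08 in aged meninges and brake genes -0.74 in young meninges. Leaving out the cell with macrophage markers, added after seeing the data, left the 6 main lists of aged meninges on the same side of 0. The 11 cycling cells of young meninges limit every value of that library.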

Other observations

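Outside the T cells described, the 7-gene rule was also passed by 3 of 28 cells of aged meninges that held no UMI of Cd3d, Cd3e or Cd3g, and by 0 of 12, 0 of 4 and 0 of 7 such cells in young meninges, young choroid plexus and aged choroid plexus. Among T cells over the limit of 5% mitochondrial UMIs, 2 of 128 in aged meninges and 3 of 142 in aged choroid plexus passed it, and 0 of 48 and 0 of 66 in young meninges and young choroid plexus.

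Genes higher in the cycling cells of all 4 libraries included 16 that were on no list. The condensin gene Smc2, the nuclear envelope gene Tmpo and Ube2s, which works with the anaphase-promoting complex, were among them, with mean log2 differences of 2.92, 2.25 and 1.89. Others were the thioredoxin gene Txn1 (1.69), the splicing gene Snrpd1 (1.71), the nucleosome assembly gene Nap1l1 (1.60) and Atpif1, an inhibitor of the mitochondrial ATP synthase (1.70). These were named after their values were seen. Among the 10 lowest genes of the cycling cells were Slfn5, Rflnb, Aff4, Ppp1r15a, Ifit1 and Il27ra, with mean log2 differences of -2.18, -1.84, -1.71, -1.65, -1.63 and -1.60.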
